A study of Mus musculus with 6 samples.

Results

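Centrosome and centriolar satellite genes were examined in 2 sorted populations of mouse hepatocytes, TERT(High) and TERT(Low). The members were the genes of the count table whose symbol begins with Cep and a digit, together with Pcm1, Pcnt, Akap9, Cspp1, Ninl, Nin, Cntrl, Cntrob, Cdk5rap2, Ofd1 and Tubgcp2 to Tubgcp6. This gave 49 genes of 15565 in the table, and 45 of the 49 had enough counts to be tested. The study sequenced mRNA from 6 libraries, 3 of TERT(High) cells and 3 of TERT(Low) cells, and the labels give a library of each kind to each of mouse 1, mouse 2 and mouse 3. All 3 mice were C57BL/6, 2 months old and of the genotype Tert(CreERT2/+); R26(LSL-Tomato/+). Both groups therefore carried the same alleles, a Tert allele with an inducible Cre recombinase and a Tomato reporter in the R26 locus that Cre switches on. Cells came from collagenase-perfused livers and were sorted straight into lysis reagent. The sources used here do not give the gates that separated the populations or any inducer given to the mice.

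The centrosome is the main microtubule-organizing centre of an animal cell. It holds a pair of centrioles inside a cloud of pericentriolar material, where ring complexes built on gamma-tubulin start new microtubules, and centriolar satellites are small granules around it that carry proteins to and from the centrioles. The older centriole bears appendages by which it can dock at the membrane and found a primary cilium. In epithelial cells such as hepatocytes many microtubules are organized away from the centrosome, and adult hepatocytes rarely divide and are often polyploid.

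Of the 45 members tested, 2 were higher in TERT(High) cells, Cep350 and Cep85l, and 0 were lower. That was 4.44% of the members, against 4.43% of all 13288 genes tested that were called higher and 3.71% called lower, so the share of called members was no larger than the background. A call is a Benjamini-Hochberg adjusted p under 0.05 over all genes tested, from the quasi-likelihood test of edgeR. With an unadjusted p under 0.05, 18 members (40.0%) were higher, against 16.3% of all genes, and 0 were lower, against 12.4% of all genes. The members' median log2 fold change of TERT(High) over TERT(Low) was 0.82, against -0.01 over all genes tested, and 40 of the 45 members lay above 0, or 39 to 43 under the other scalings.

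The libraries held 53585174 to 64065266 counts in TERT(High) cells and 55355819 to 76164917 counts in TERT(Low) cells. Tert itself had 38, 33 and 30 counts in TERT(High) cells from mice 1 to 3, against 21, 21 and 12 counts in TERT(Low) cells. That was 0.560 ± 0.0543 CPM (counts scaled to a library of 1000000) against 0.305 ± 0.0882 CPM (SD, n = 3 each), without overlap between the groups, and a log2 fold change of 0.87 (SE 0.44 and adjusted p = 0.249 by edgeR). All 8 hepatocyte markers were present, summing to 115200 to 126200 CPM in TERT(High) libraries and 104500 to 128700 CPM in TERT(Low) libraries. Of these, Asgr1, a subunit of the asialoglycoprotein receptor, fell, with a log2 fold change of -0.71 (SE 0.16 and adjusted p = 0.0485 by edgeR). Apoa1 and Ttr were lower at an unadjusted p under 0.05. The other way, 3 of the 8 lay above 0, Alb at 0.41, Hnf4a at 0.44 and Cps1 at 0.57, uncalled but higher in all 3 mice. Once each library's trends with transcript length and GC content were removed, the median of the 8 moved from -0.36 to -0.07. The 9 endothelial markers, none of them at 0 in any library, summed to 38.4 to 69.4 CPM in TERT(High) libraries against 28.3 to 35.7 CPM in TERT(Low) libraries, and 2 of them, Kdr and Lyve1, rose; 7 of the 9 were higher at an unadjusted p under 0.05. The 11 macrophage markers summed to 19.7 to 110.6 CPM in TERT(High) libraries against 17.3 to 52.9 CPM in TERT(Low) libraries, and the 4 cholangiocyte markers found to 9.09 to 15.02 CPM in TERT(High) libraries against 4.13 to 7.66 CPM in TERT(Low) libraries. The 10 neutrophil markers summed to 5.27 to 13.4 CPM in TERT(High) libraries and 4.90 to 11.9 CPM in TERT(Low) libraries, with Mpo at 0 in every TERT(Low) library. Of the 7 neutrophil markers tested, 6 lay above 0 with a median log2 fold change of 2.12, 4 (Camp, Ltf, Ngp and S100a9) were higher at an unadjusted p under 0.05, Cxcr2 was the other way at -1.05, and 0 were called. The 7 lymphocyte markers found summed to 1.18 to 2.32 CPM in TERT(High) libraries and 0.599 to 0.878 CPM in TERT(Low) libraries. The 8 stellate and fibroblast markers summed to 4.89 to 246.6 CPM in TERT(High) libraries and 4.37 to 13.54 CPM in TERT(Low) libraries, and the 6 erythroid markers to 17.5 to 206.8 CPM in TERT(High) libraries and 39.9 to 61.03 CPM in TERT(Low) libraries. Hba-a1 and Hba-a2 had the same counts as each other in every library, so the erythroid sums may hold the same reads more than once. The TERT(High) library of mouse 1 held the highest stellate and erythroid sums of the 6. Removal of the length and GC trends moved the median log2 fold change of the endothelial markers tested from 1.14 to 0.94. That of the neutrophil markers went from 2.12 to 2.63, and that of the macrophage markers from 0.97 to 0.96. For the stellate, cholangiocyte and erythroid markers, medians of 0.75, 0.98 and 1.1 became 0.59, 1.02 and 1.71. The part of these other cell types in the members' differences was not tested, and in sorted bulk samples fewer cells of a type and less RNA per cell cannot be told apart.

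Upstream sequence was taken from RefSeq (GRCm38.p6), as the 250 bases before a gene's annotated start, and 40 of the 49 members had an entry. Of these, 3 are printed, since they span the range of responses: Cep85l, which rose, Pcnt, which had the largest log2 fold change of the members, and Cep19, which had one close to 0. The Cep85l window is chr10:53379884-53380133 (minus strand), the Pcnt window chr10:76442913-76443162 (minus strand) and the Cep19 window chr16:32099539-32099788 (plus strand). Each runs 5′ to 3′ along the gene, and capitals mark GGGCGG, the core of the GC box, on either strand.
Cep85l: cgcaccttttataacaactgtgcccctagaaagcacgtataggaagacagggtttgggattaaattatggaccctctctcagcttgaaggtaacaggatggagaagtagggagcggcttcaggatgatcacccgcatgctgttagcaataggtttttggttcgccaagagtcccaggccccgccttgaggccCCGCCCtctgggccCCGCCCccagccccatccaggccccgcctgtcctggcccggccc
Pcnt: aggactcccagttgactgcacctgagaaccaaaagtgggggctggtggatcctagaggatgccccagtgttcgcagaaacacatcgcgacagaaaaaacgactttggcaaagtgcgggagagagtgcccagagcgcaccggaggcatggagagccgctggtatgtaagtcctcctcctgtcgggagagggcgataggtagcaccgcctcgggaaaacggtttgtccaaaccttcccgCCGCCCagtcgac
Cep19: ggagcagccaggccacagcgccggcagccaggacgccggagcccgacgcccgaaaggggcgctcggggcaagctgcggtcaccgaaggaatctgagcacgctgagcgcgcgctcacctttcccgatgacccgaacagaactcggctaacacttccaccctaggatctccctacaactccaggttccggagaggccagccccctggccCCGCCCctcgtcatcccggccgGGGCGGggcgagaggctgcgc
The Cep85l and Cep19 windows each hold 2 copies of GGGCGG and the Pcnt window holds 1. On either strand, GGGCGG was found before 26 of the 40 members (65.0%), against 61.7% of the 10501 tested genes with an entry and 32.7% of all 32841 promoter windows. CCAAT, the core of the CCAAT box, was found before 17 members (42.5%), against 40.7% of tested genes and 33.9% of all windows. GTTGCC, the start of the X-box bound by RFX factors that drive many ciliary genes, was found before 4 of the 40, against 12.5% of tested genes and 10.4% of all windows. The motifs can share bases at their ends, and a match describes letters in these windows, not a binding site.

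The 2 members that rose are in the linker and anchoring group. Cep350 (Entrez 74081, chromosome 1, 155844964 to 155973270, minus strand, GRCm38.p6) encodes a protein that anchors microtubules at the centrosome, and its longest-coding transcript has 38 exons and 13307 nt. Cep350 had 4.20, 9.27 and 12.6 CPM in TERT(High) cells from mice 1, 2 and 3, against 1.59, 1.47 and 2.01 CPM in their TERT(Low) cells. All 3 TERT(High) values lay above all 3 TERT(Low) values, and mouse 1 was the lowest of the TERT(High) libraries. The means were 8.67 ± 4.21 CPM and 1.69 ± 0.283 CPM (SD, n = 3 each), a log2 fold change of 2.36 (SE 0.42 and adjusted p = 0.0310 by edgeR).

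Cep85l (Entrez 100038725, chromosome 10, 53273441 to 53379883, minus strand, 13 exons, 7425 nt) encodes a centrosomal protein needed for neuronal migration in humans and mice. It had 4.62, 4.31 and 2.83 CPM in TERT(High) libraries, against 1.09, 1.51 and 0.721 CPM in TERT(Low) libraries. The groups did not overlap, and here mouse 1 was the highest of the TERT(High) libraries. The means were 3.92 ± 0.956 CPM and 1.11 ± 0.394 CPM (SD, n = 3 each), with a log2 fold change of 1.82 (SE 0.35 and adjusted p = 0.0342 by edgeR). With the mouse as a block the edgeR adjusted p was 0.0407 for both Cep350 and Cep85l. In edgeR either call was lost when the length and GC trends of each library were removed together, which left Cep350 at 1.48 and Cep85l at 1.05 on the log2 scale.

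The other 4 members of the linker and anchoring group were not called. Cep250, which encodes the linker protein C-NAP1 that tethers the centrioles, had 0.294, 2.36 and 2.56 CPM in TERT(High) libraries, against 0.545, 0.191 and 0.285 CPM in TERT(Low) libraries. Its TERT(High) values in mice 2 and 3 lay above all TERT(Low) values, while the TERT(High) value of mouse 1 lay among them, and the log2 fold change was 2.33 (SE 0.84 and adjusted p = 0.125 by edgeR). Cep19, a small protein recruited to the mother centriole by Cep350 and its partner Fop, had 2.97, 3.68 and 3.35 CPM against 3.11, 3.86 and 3.91 CPM in TERT(Low) libraries. It was the lower of the pair in each of the 3 mice, by little, and its log2 fold change was -0.12 (SE 0.20 and adjusted p = 0.724 by edgeR). Cep68, another linker component, had a log2 fold change of 0.35 (SE 0.29), and Cep70, which binds gamma-tubulin, 0.81 (SE 0.80) at 0.313 and 0.176 CPM. The group's median log2 fold change was 1.32, with 5 of 6 above 0.

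**Figure D1:**
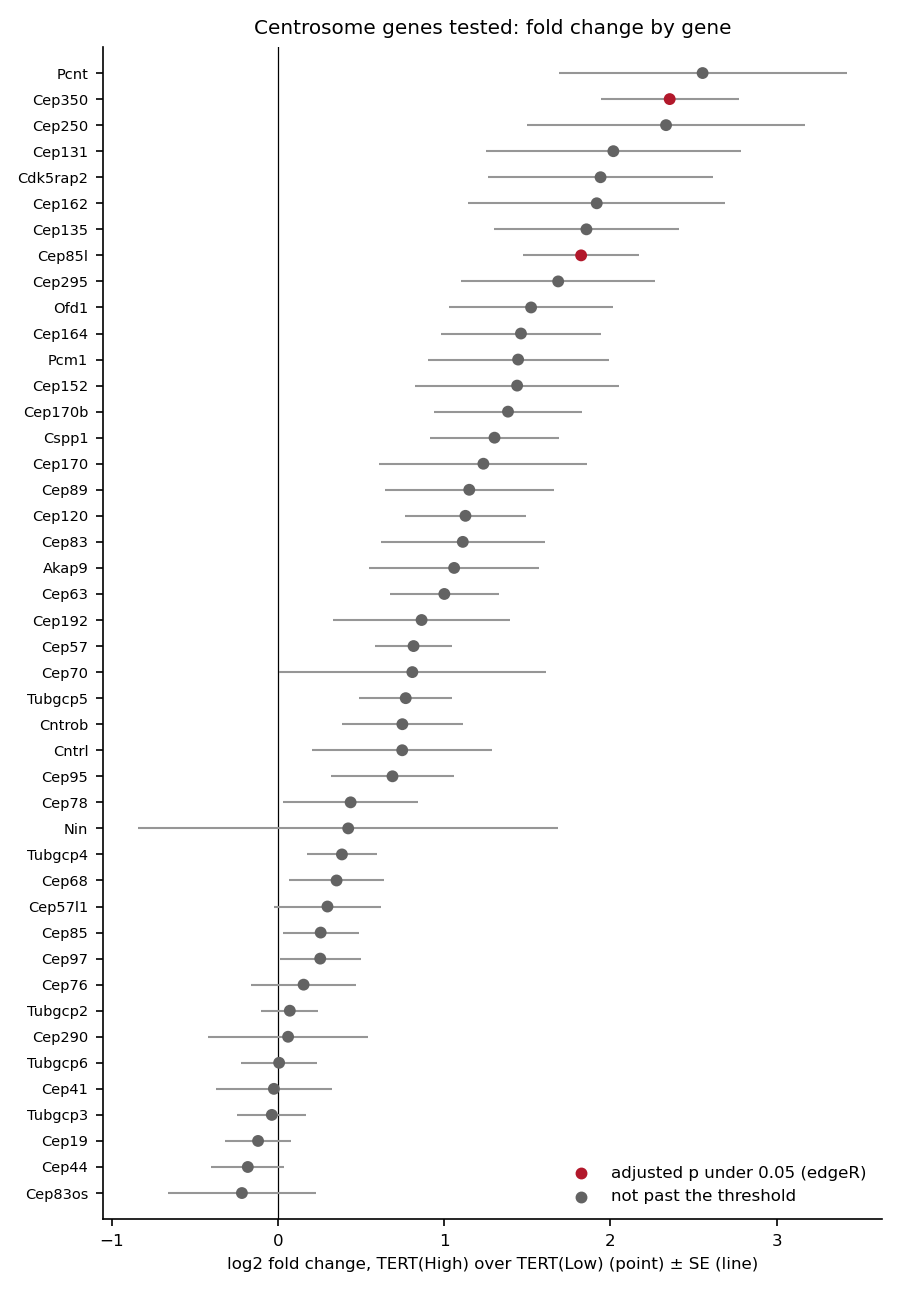
Log2 fold change of TERT(High) over TERT(Low) for 44 of the 45 members tested (points, with bars of 1 SE), in order of size; called members are marked. Pcnt is at the high end at 2.56 with a wide error, Cep350 (2.36) and Cep85l (1.82) are the called members, and 5 members lie below 0.

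The pericentriolar material scaffolds had a median log2 fold change of 1.0 over 9 members, all above 0, with 0 called and 4 at an unadjusted p under 0.05. For each role group, the shares over all genes tested were 4.43% called higher and 16.3% higher at an unadjusted p under 0.05. Among genes with transcripts of 4906 nt and longer, 43.7% were higher at that unadjusted p. Of all 13288 genes tested, 6541 lay above 0. Pcnt (Entrez 18541, chromosome 10, 76351254 to 76442912, minus strand, 9331 nt) encodes pericentrin, the scaffold that recruits gamma-tubulin ring complexes. Pcnt had 0.245, 3.48 and 2.66 CPM in TERT(High) libraries, from 15, 211 and 155 counts, against 0.395, 0.363 and 0.323 CPM in TERT(Low) libraries, from 29, 19 and 17 counts. The TERT(High) library of mouse 1 was the lowest of all 6, and those of mice 2 and 3 were far above the rest. The log2 fold change of 2.56 had an SE of 0.87 and an adjusted p of 0.109 by edgeR.

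Cdk5rap2, whose protein activates gamma-tubulin ring complexes, had 0.392, 1.75 and 1.68 CPM in TERT(High) libraries, against 0.382, 0.172 and 0.436 CPM in TERT(Low) libraries. The same layout was seen, with mouse 1 inside the TERT(Low) range and mice 2 and 3 above it, and the log2 fold change was 1.94 (SE 0.68 and adjusted p = 0.115 by edgeR). Akap9, a scaffold of the Golgi and the centrosome that anchors protein kinase A, had 1.63, 3.09 and 6.61 CPM against 1.76, 1.41 and 2.26 CPM in TERT(Low) libraries. Its groups overlapped through mouse 1, and the log2 fold change was 1.06 (SE 0.51 and adjusted p = 0.230 by edgeR). Cep57, which stabilizes the material around the centrioles, differed less in size but more evenly, with 3.75, 2.84 and 3.09 CPM against 1.77, 1.55 and 2.18 CPM in TERT(Low) libraries. The Cep57 groups did not overlap, and its log2 fold change was 0.82 (SE 0.23 and adjusted p = 0.0757 by edgeR). Its paralog Cep57l1 had a log2 fold change of 0.30 (SE 0.32).

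The centriole duplication and length group had 12 tested members, of which 11 lay above 0, 4 had an unadjusted p under 0.05 and 0 were called; its median log2 fold change was 0.81. Cep135, a structural protein of the centriole wall, had 0.457, 1.19 and 1.36 CPM in TERT(High) libraries, against 0.218, 0.229 and 0.379 CPM in TERT(Low) libraries. The groups did not overlap, and the log2 fold change was 1.86 (SE 0.55 and adjusted p = 0.0828 by edgeR). Cep295, needed for a new centriole to become a centrosome, had a log2 fold change of 1.69 (SE 0.58 and adjusted p = 0.113 by edgeR), and Cep152 and Cep192, the receptors for the duplication kinase Plk4, had 1.44 (SE 0.61) and 0.86 (SE 0.53). Cep63, the binding partner of Cep152, had 1.001 (SE 0.33 and adjusted p = 0.0997 by edgeR) and Cep120, which promotes centriole elongation, 1.13 (SE 0.37 and adjusted p = 0.0985 by edgeR). Cntrob, which encodes centrobin of the daughter centriole, had 0.914, 1.27 and 1.22 CPM in TERT(High) libraries, against 0.708, 0.840 and 0.474 CPM in TERT(Low) libraries. Every TERT(High) value of Cntrob was above every TERT(Low) value, with a log2 fold change of 0.75 (SE 0.36 and adjusted p = 0.232 by edgeR).

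Cep85, which binds the duplication factor Stil, was among the most abundant members and differed little. It had 20.3, 22.9 and 17.1 CPM in TERT(High) libraries, against 22.1, 14.02 and 14.3 CPM in TERT(Low) libraries. The groups overlapped, and means of 20.1 ± 2.91 CPM and 16.8 ± 4.58 CPM (SD, n = 3 each) gave a log2 fold change of 0.26 (SE 0.23 and adjusted p = 0.519 by edgeR). Cep44, needed like Cep295 for centriole maturation, had 1.6, 1.72 and 1.61 CPM against 1.73, 1.85 and 2.01 CPM in TERT(Low) libraries. It was the only one of the 45 tested members whose TERT(High) values all lay below its TERT(Low) values, and the difference was small, with a log2 fold change of -0.18 (SE 0.22 and adjusted p = 0.631 by edgeR). Among the duplication regulators, the log2 fold change of Cep78 was 0.44 (SE 0.40), of Cep97 0.25 (SE 0.24) and of Cep76 0.15 (SE 0.32).

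The gamma-tubulin complex subunits stood near 0, with a median log2 fold change of 0.07 over 5 members and 0 called. Tubgcp2, a subunit of the small complex, had 6.09, 7.81 and 6.90 CPM in TERT(High) libraries, against 7.15, 6.22 and 6.41 CPM in TERT(Low) libraries. Its partner Tubgcp3 had 2.40, 3.32 and 3.11 CPM in TERT(High) libraries, against 2.89, 3.23 and 2.94 CPM in TERT(Low) libraries. Both overlapped between groups, with log2 fold changes of 0.07 (SE 0.17 and adjusted p = 0.814 by edgeR) for Tubgcp2 and -0.04 (SE 0.21 and adjusted p = 0.926 by edgeR) for Tubgcp3. Tubgcp6, one of the subunits found only in the ring complex (chromosome 15, 89099097 to 89123208, minus strand), had 15.3, 27.4 and 22.4 CPM in TERT(High) libraries, against 20.9, 20.2 and 23.7 CPM in TERT(Low) libraries. The TERT(High) values ranged both below and above the TERT(Low) values, and the log2 fold change was 0.01 (SE 0.23 and adjusted p = 0.988 by edgeR), with a sign that changed with the scaling.

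The other ring complex subunits lay somewhat higher. Tubgcp4 had 10.1, 14.1 and 14.1 CPM in TERT(High) libraries, against 8.16, 9.45 and 11.7 CPM in TERT(Low) libraries, with a log2 fold change of 0.38 (SE 0.21 and adjusted p = 0.289 by edgeR) and overlap through mouse 1. Tubgcp5 had 1.89, 2.25 and 2.61 CPM against 1.65, 1.28 and 1.02 CPM in TERT(Low) libraries. The Tubgcp5 groups did not overlap, and its log2 fold change of 0.77 (SE 0.28 and adjusted p = 0.129 by edgeR) was the largest of the 5 subunits. Tubgcp4 shares 2130 nt of exonic sequence with Trp53bp1 on the other strand and Tubgcp6 shares 998 nt with Selenoo, and the sources used here do not give the strand setting of the authors' counting. In all, 12 members share exonic bases with a protein-coding gene of the table, among them Akap9, which shares 166 nt with Cyp51 at 181.2 CPM in TERT(High) cells and 232.8 CPM in TERT(Low) cells. For the neighbours of Tubgcp4 and Tubgcp6 the log2 fold changes were 0.51 (SE 0.24) for Trp53bp1 and -0.09 (SE 0.23) for Selenoo.

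**Figure D2:**
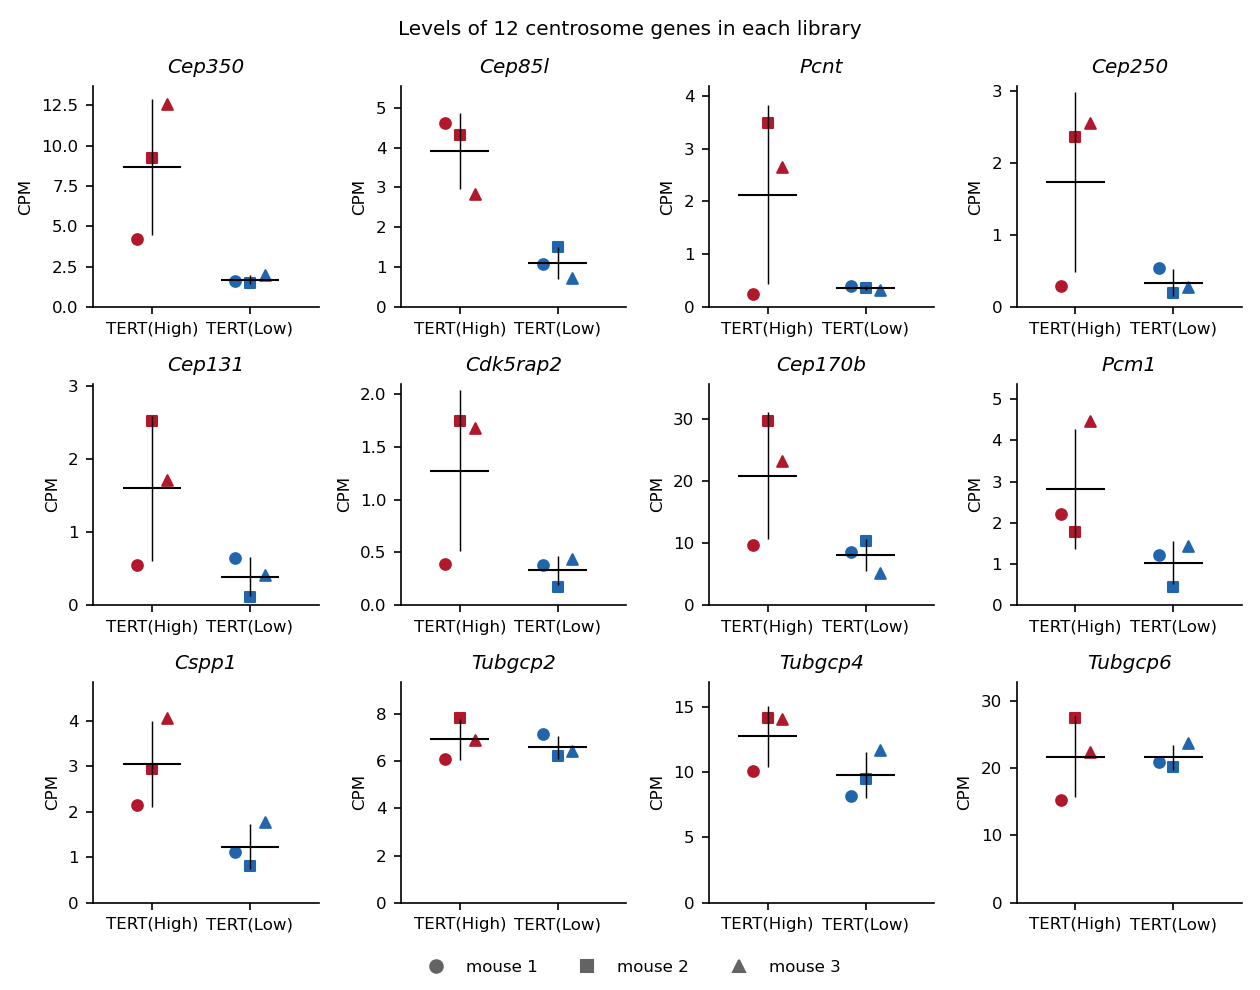
CPM of selected members in each of the 6 libraries, TERT(High) left of TERT(Low), with the mouse as the marker shape, and the mean and SD as lines; each linear axis starts at 0. Cep350 and Cep85l separate the groups in all 3 mice, the TERT(High) points of mouse 1 sit with the TERT(Low) points for Pcnt and Cdk5rap2, and Tubgcp6 overlaps fully.

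Of the 7 centriolar satellite genes, 5 were tested, all 5 lay above 0, and 4 had an unadjusted p under 0.05, with a median log2 fold change of 1.45 and 0 called. Pcm1, the scaffold on which the granules assemble, had 2.20, 1.77 and 4.48 CPM in TERT(High) libraries, against 1.21, 0.439 and 1.44 CPM in TERT(Low) libraries. Its groups did not overlap, mouse 2 was the lowest of each group, and means of 2.82 ± 1.46 CPM and 1.03 ± 0.525 CPM (SD, n = 3 each) gave a log2 fold change of 1.45 (SE 0.54 and adjusted p = 0.139 by edgeR). Cspp1, a microtubule-binding protein of satellites and the cilium base, had 2.15, 2.94 and 4.05 CPM against 1.12, 0.802 and 1.78 CPM in TERT(Low) libraries. Each Cspp1 value in TERT(High) libraries exceeded each in TERT(Low) libraries, with a log2 fold change of 1.30 (SE 0.39) and an edgeR adjusted p of 0.0814, or 0.0499 with the mouse as a block. Ofd1, a protein of satellites and the distal centriole, had 0.636, 0.875 and 1.24 CPM against 0.232, 0.248 and 0.474 CPM in TERT(Low) libraries. The Ofd1 groups did not overlap either, with a log2 fold change of 1.52 (SE 0.50 and adjusted p = 0.0991 by edgeR).

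Cep131, a satellite protein, had 0.555, 2.53 and 1.72 CPM in TERT(High) libraries, against 0.640, 0.115 and 0.417 CPM in TERT(Low) libraries. Mouse 1 was the exception again, with its TERT(High) library below its TERT(Low) library, and the log2 fold change was 2.02 (SE 0.77 and adjusted p = 0.142 by edgeR). Cep290, which builds the gate at the cilium base, was the satellite gene with the smallest difference, at 0.718, 0.330 and 0.909 CPM in TERT(High) libraries and 0.545, 0.707 and 0.626 CPM in TERT(Low) libraries. Its groups overlapped, and its log2 fold change was 0.06 (SE 0.48 and adjusted p = 0.948 by edgeR), or -0.95 once the length and GC trends were removed. The other satellite genes, Cep72 and Cep126, had too few counts to be tested, at 5, 12 and 8 counts in TERT(High) libraries and 9, 2 and 8 in TERT(Low) libraries for Cep72. Cep126 had 0, 0 and 5 counts in TERT(High) libraries and 14, 0 and 2 in TERT(Low) libraries.

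Among the appendage genes of the mother centriole, 7 of the 9 in the table were tested, all 7 lay above 0, 2 had an unadjusted p under 0.05 and 0 were called; the median log2 fold change was 1.15. Cep170b, a paralog of the subdistal appendage protein Cep170, was the most abundant of them. It had 9.70, 29.7 and 23.2 CPM in TERT(High) libraries, against 8.56, 10.2 and 5.198 CPM in TERT(Low) libraries. Mice 2 and 3 lay above all TERT(Low) values and mouse 1 lay within their range, and means of 20.9 ± 10.2 CPM and 8.002 ± 2.57 CPM (SD, n = 3 each) gave a log2 fold change of 1.38 (SE 0.45 and adjusted p = 0.0988 by edgeR). Cep164, the distal appendage protein that starts cilium formation, had 1.6, 6.09 and 4.77 CPM against 1.42, 1.79 and 1.31 CPM in TERT(Low) libraries. It showed the same layout as Cep170b, with a log2 fold change of 1.46 (SE 0.48 and adjusted p = 0.103 by edgeR). Of the distal appendage genes, Cep89 had 1.15 (SE 0.51) and Cep83 1.11 (SE 0.49) as log2 fold change, and Cep170 had 1.24 (SE 0.63).

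Nin, which encodes ninein, the microtubule anchor of the mother centriole, had 0.310, 0.231 and 0.686 CPM in TERT(High) libraries, against 0.695, 0 and 0.209 CPM in TERT(Low) libraries. The groups overlapped over their whole range, and the log2 fold change of 0.42 had an SE of 1.26, with adjusted p = 0.852 by edgeR. Cntrl, which encodes centriolin, had 0.947, 2.66 and 3.74 CPM against 0.899, 1.45 and 2.03 CPM in TERT(Low) libraries. Its TERT(High) library was the higher in every mouse although the groups overlapped, with a log2 fold change of 0.75 (SE 0.54 and adjusted p = 0.424 by edgeR). Ninl, a paralog of Nin, had 1, 8 and 6 counts in TERT(High) libraries and 1, 1 and 3 in TERT(Low) libraries, and Cep128 had 12, 6 and 12 counts and 4, 0 and 7 counts; neither was tested.

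The genes of the cilium base and transition zone share Cep290, Cep164, Cep19, Ofd1 and Cspp1 with the groups above, and their median log2 fold change was 0.90, with 6 of 8 above 0 and 0 called. Of those not yet given, Cep162, which promotes assembly of the transition zone, had 0.179, 0.661 and 0.841 CPM in TERT(High) libraries, against 0.191, 0.0573 and 0.190 CPM in TERT(Low) libraries. Mouse 1 lay within the TERT(Low) range and mice 2 and 3 above it, with a log2 fold change of 1.92 (SE 0.77 and adjusted p = 0.161 by edgeR). Cep41, needed for tubulin glutamylation in cilia, had a log2 fold change of -0.02 (SE 0.35). The remaining members belonged to no group. Cep95 had a log2 fold change of 0.69 (SE 0.37), and Cep83os, an RNA from the strand opposite Cep83, had 1.01, 0.429 and 0.686 CPM in TERT(High) libraries against 1.06, 0.745 and 0.664 CPM in TERT(Low) libraries. Cep83os overlapped between groups and had the lowest log2 fold change of the tested members, at -0.22 (SE 0.45 and adjusted p = 0.778 by edgeR).

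**Figure D3:**
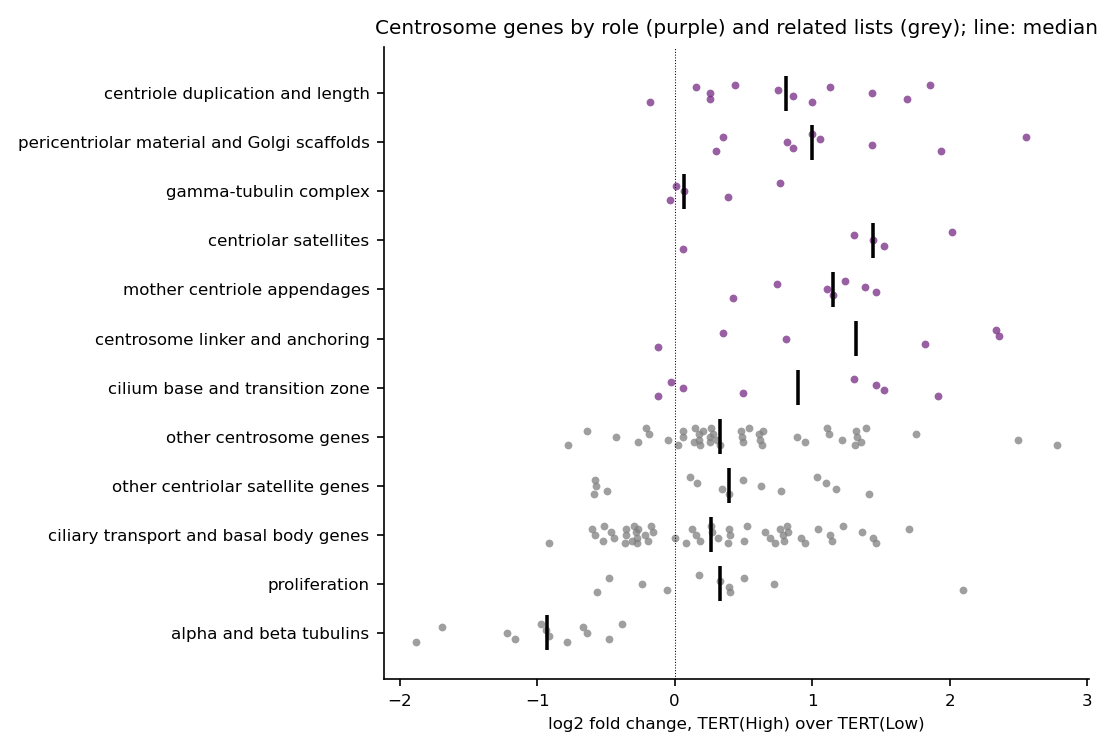
Log2 fold change of TERT(High) over TERT(Low) for each tested member by role group (purple) and for the genes of 5 related lists (grey), with medians as lines; members in more than 1 group appear in each. The gamma-tubulin complex has its median at 0.07, and the satellite genes, the linker and anchoring genes and the appendage genes have theirs at 1.45, 1.32 and 1.15.

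Division by transcript length kept Cep85, Tubgcp4 and Tubgcp6 among the 4 most abundant members over both groups, and Tubgcp2 took the place of Cep170b. Per kilobase, Cep85 had 5.16 CPM in TERT(High) cells and 4.32 CPM in TERT(Low) cells, Tubgcp4 3.03 and 2.32 CPM, Tubgcp6 2.84 and 2.83 CPM, and Tubgcp2 2.34 and 2.23 CPM. Cep170b had 3.15 CPM per kilobase in TERT(High) cells and 1.21 CPM per kilobase in TERT(Low) cells. Per kilobase, Cep350 reached 0.652 CPM in TERT(High) cells against 0.127 CPM in TERT(Low) cells, and Pcnt 0.228 CPM against 0.0386 CPM.

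The difference was not even over the mice. In mouse 1 the TERT(High) library was the higher for 30 of the 45 members, with a median log2 difference of 0.18, against 38 members and 1.08 in mouse 2 and 41 members and 1.08 in mouse 3. Over all genes tested the medians were -0.08, 0.01 and 0.10 in mice 1, 2 and 3. The TERT(High) library of mouse 1 was the lowest of the 3 TERT(High) libraries for 30 members, and for 26 members it lay at or below the highest TERT(Low) library. The members' CPM summed to 128.7, 202.3 and 191.3 in TERT(High) cells from mice 1, 2 and 3 and to 118.7, 108.8 and 112.9 in TERT(Low) cells, so the sums did not overlap and mouse 1 was the closest to the TERT(Low) range. Higher in all 3 mice were 26 members (57.8%), against 28.2% of all genes tested, and lower in all 3 were 2 (4.44%), Cep19 and Cep44, against 27.6%. For 13 members (28.9%) all TERT(High) values lay above all TERT(Low) values, against 17.5% of all genes, and for 1 member (2.22%) below, against 15.9%. Without the TERT(High) library of mouse 1, edgeR called 9 members higher: Cdk5rap2, Cep120, Cep135, Cep164, Cep170b, Cep250, Cep350, Cep63 and Pcnt, but not Cep85l. That was 20.0% of the members, against 6.85% of all genes, and 0 members were lower, against 5.21%. Without any other single library, edgeR called 0 genes of the whole table in either direction. At an unadjusted p under 0.05 those fits had 7 to 13 members higher (15.2% to 28.3%), against 11.2% to 14.2% of all genes. DESeq2 called 13 of 35 members higher (37.1%) without the TERT(High) library of mouse 1, against 15.1% of all genes, and 0 lower, against 14.7%. It called 2 of 26 and 2 of 42 members higher without the TERT(High) library of mouse 2 or 3, against 10.2% and 6.39% of all genes, and 0 lower, against 9.5% and 6.34%. Without the TERT(Low) library of mouse 1, 2 or 3 it called 5 of 30, 5 of 30 and 5 of 33 members higher, against 9.72%, 12.3% and 10.5% of all genes, and 0 lower, against 9.1%, 7.32% and 9.17%.

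**Figure D4:**
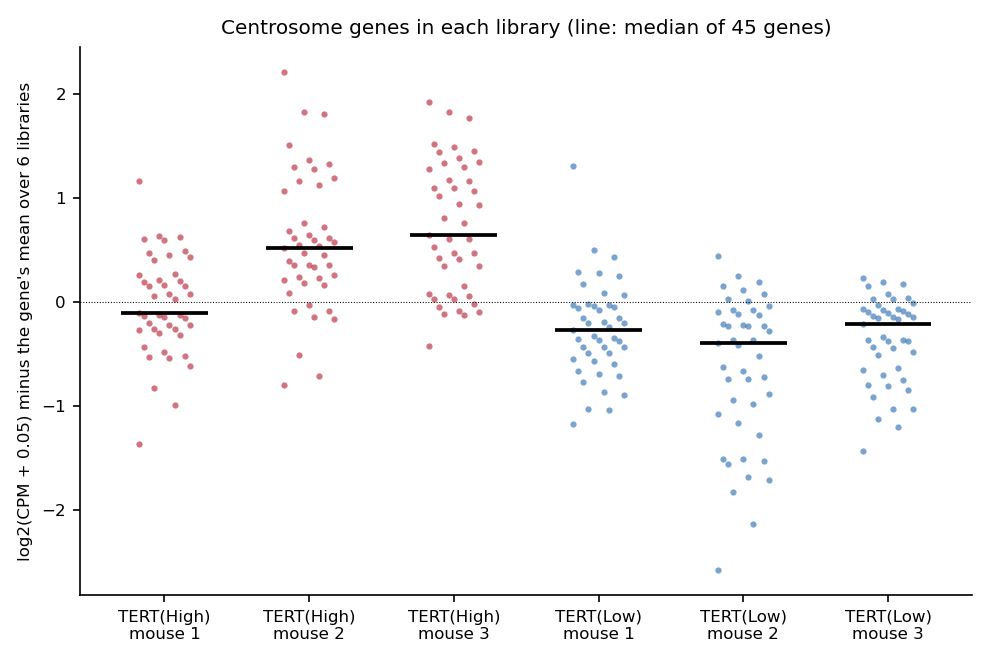
Deviation of each tested member from its mean over the 6 libraries, in log2(CPM + 0.05), by library with TERT(High) left of TERT(Low), and the median as a line. The medians are -0.11, 0.52 and 0.65 for TERT(High) cells from mice 1, 2 and 3, and -0.26, -0.40 and -0.21 for their TERT(Low) cells.

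The members are long genes, and in these libraries the log2 fold change followed transcript length over all genes. The members' transcripts, taken as the one with the longest coding sequence in GENCODE M21, had a median of 4679 nt, against 2962 nt for all genes tested. Spearman's rho of log2 fold change with transcript length was 0.45 across the 44 members with a length and 0.48 across 12548 genes. With mean CPM, rho was -0.32 across the same members and -0.07 across the same genes. The expression filter can admit genes of low abundance through the group where they are higher. Of the tested members, 8 reached its cut in all 3 TERT(High) libraries but in fewer than 3 TERT(Low) libraries. The part of the filter in the relation with mean CPM was not tested. Genes of 1 library share its length trend and are not independent replicates. In the longest quintile of genes, those of 4906 nt and longer, the members had a median log2 fold change of 1.44 (21 members) against 0.65 for all genes of that quintile. In that quintile, 52.4% of the members and 43.7% of all genes had an unadjusted p under 0.05 and were higher, and 2 of the 21 members (9.52%) and 15.2% of all genes were called higher. In the next quintile the medians were 0.76 for 12 members and 0.28 for all genes, in the middle quintile 0.75 for 8 members and 0.06, and in the one below it -0.12 for 3 members and -0.16.

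The length trend differed between libraries as the groups did. The slope of log2 CPM on log2 transcript length, relative to the mean of the 6 libraries, was 0.0859, 0.144 and 0.274 for TERT(High) cells from mice 1, 2 and 3, against -0.0473, -0.259 and -0.197 for their TERT(Low) cells. After each library's trend with length and GC content was removed, the members' median log2 fold change was 0.60, against 0.00 over all genes. Of 44 members, 36 lay above 0. Part of the length trend remained over all genes, with medians from -0.07 in the shortest quintile to 0.11 in the longest. In the longest quintile the members' median was then 0.91 against 0.11 for all genes. It was 0.50 against 0.03 in the next quintile, 0.59 against 0.02 in the middle and 0.08 against -0.02 below it. In that fit, edgeR called 0 of 44 members and 0 genes in all, and 9 members (20.5%) were higher with an unadjusted p under 0.05, against 8.77% of all genes, with 0 members lower, against 4.34%. DESeq2 with the same removal called 1 of 32 members higher, Cep350, against 3.95% of all genes, and 0 lower, against 1.84%. The medians by role group were 0.91 for satellites, 0.82 for appendages, 0.80 for linker and anchoring, 0.66 for pericentriolar material, 0.58 for duplication, 0.58 for the cilium base and 0.06 for the gamma-tubulin complex. Whether the trend with length comes from the cells or from the RNA and library steps was not tested.

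**Figure D5:**
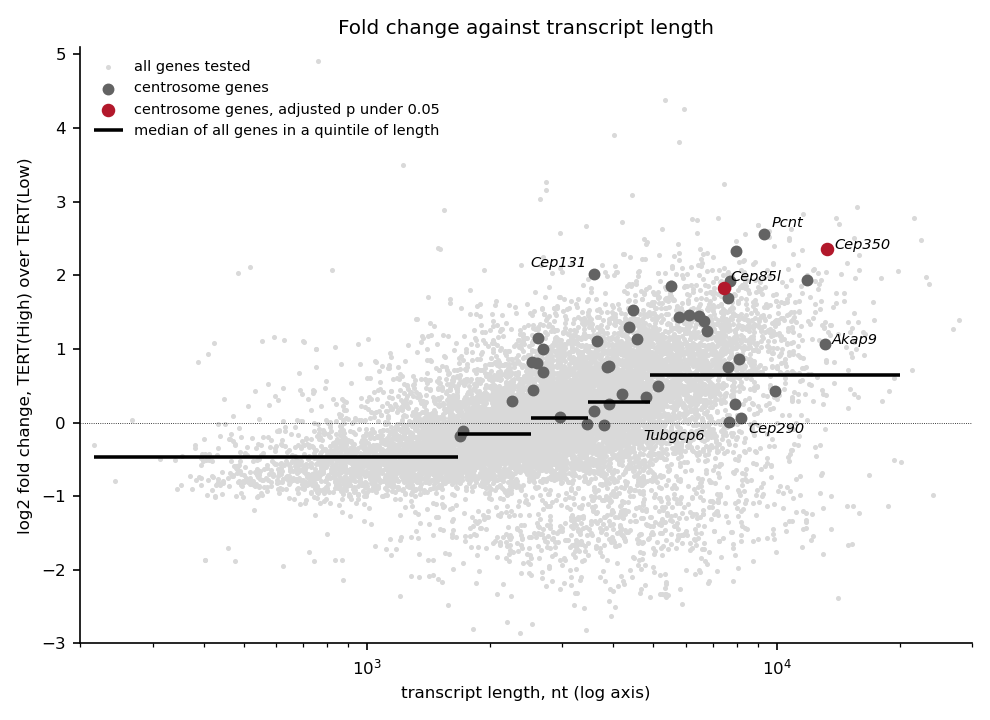
Log2 fold change of TERT(High) over TERT(Low) against transcript length in nt (log axis, which ends short of the few longest transcripts), with all genes tested in light grey, the members in dark grey and the called members in red, and the medians of all genes by length quintile as steps, the last one drawn short of the axis end. The step medians climb to 0.65 in the longest quintile, where the 21 members have a median of 1.44.

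The calls depended on the tool more than the direction did. With the mouse as a block, edgeR called 3 members higher (6.67%), against 5.43% of all genes, and 0 lower, against 4.3%, with Cspp1 as the third. Limma-voom called 2 members higher, against 3.88% of all genes, and 0 lower, against 3.42%. DESeq2 called 13 of the 39 members with an adjusted p higher (33.3%), against 13.6% of all genes, and 0 lower, against 11.3%. Those 13 were Cep350 and Cep85l with Pcnt, Cep250, Cep131, Cdk5rap2, Cep135, Cep295, Cep164, Cep170b, Cspp1, Cep120 and Cep57. The authors' deposited table lists 30 of the members, with 9 higher at an adjusted p under 0.05 and 0 lower, against 15.8% higher and 13.4% lower of its 10858 genes. In the authors' deposited table the log2 fold change of Cep350 is 1.93 (SE 0.31, adjusted p = 4.39e-08), of Cep85l 1.58, Pcnt 1.31, Cep250 1.17, Pcm1 1.15, Cep170b 1.12, Cspp1 1.09, Cep164 1.0 and Cep63 0.86. The DESeq2 fit made here gave larger values for these genes, such as 2.32 for Cep350, 2.53 for Pcnt and 2.30 for Cep250. The submitters' notes give no DESeq2 version, and the cause of the difference in size was not tested. Of the tested members, 8 reached the expression cut of 0.18 CPM (per library total, before TMM scaling) in all 3 TERT(High) libraries but in fewer than 3 TERT(Low) libraries: Cdk5rap2, Cep131, Cep152, Cep162, Cep192, Cep250, Cep295 and Nin. Of the 36 members at the cut in all 6 libraries, 31 lay above 0, and with no expression filter 43 of 49 did, with 2 called.

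Other genes of the same structures lay closer to 0 at the median, but their transcripts were also shorter. The median lengths were 3227 nt for further centrosome genes, 3311 nt for further satellite genes and 3068 nt for ciliary genes, against 4679 nt for the members. After removal of the length and GC trends their median log2 fold changes were 0.31, 0.39 and 0.13 in that order, against 0.60 for the members. Of 43 further centrosome genes tested, 0 were called and the median log2 fold change was 0.33. With an unadjusted p under 0.05 there were 11 higher and 2 lower. For this list and those below, the shares over all genes tested were 4.43% called higher and 3.71% called lower. At an unadjusted p under 0.05 they were 16.3% higher and 12.4% lower. Their most abundant members included Tubg1, the main gamma-tubulin, at 13.6, 23.0 and 22.01 CPM in TERT(High) libraries and 17.3, 19.4 and 15.2 CPM in TERT(Low) libraries. The Tubg1 groups overlapped, with a log2 fold change of 0.17 (SE 0.23 and adjusted p = 0.661 by edgeR), and Mapre1, a microtubule plus-end protein, had 0.26 (SE 0.21). Numa1, a spindle pole protein named here after its values were seen, had 1.58, 23.0 and 16.0 CPM in TERT(High) libraries, against 2.15, 1.66 and 2.07 CPM in TERT(Low) libraries. Like Pcnt, Numa1 was low in the TERT(High) library of mouse 1 and high in those of mice 2 and 3, with a log2 fold change of 2.78 (SE 0.85 and adjusted p = 0.0876 by edgeR).

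Of 15 further satellite genes tested, 1 rose and 0 fell, with a median log2 fold change of 0.39. Mib1, a ubiquitin ligase of the satellites that also acts in Notch signalling, had 13.04, 9.36 and 9.21 CPM in TERT(High) libraries, against 5.0, 5.52 and 3.49 CPM in TERT(Low) libraries. Its groups did not overlap, and the log2 fold change was 1.17 (SE 0.25 and adjusted p = 0.0400 by edgeR), or 0.38 once the length and GC trends were removed. Of 51 ciliary transport and basal body genes tested, 0 were called, the median was 0.27, and at an unadjusted p under 0.05 there were 12 higher and 4 lower; the abundant transport subunits Ift20 and Ift46 had -0.46 (SE 0.20) and -0.30 (SE 0.15). Of 11 proliferation genes tested, 0 were called and 1, Nusap1, was higher with an unadjusted p under 0.05, with a median of 0.33. Pcna, the sliding clamp of DNA replication, had a log2 fold change of -0.24 (SE 0.19 and adjusted p = 0.479 by edgeR) and Rrm2, a subunit of ribonucleotide reductase, 0.39 (SE 0.57).

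The alpha and beta tubulins, the subunits of the microtubule itself, lay the other way: 0 of 12 had a log2 fold change above 0, and the median was -0.92, with 0 called and 3 lower at an unadjusted p under 0.05. Tuba1c had 194.8, 132.3 and 190.5 CPM in TERT(High) libraries, against 292.6, 476.0 and 245.3 CPM in TERT(Low) libraries. Tuba1b had 136.7, 98.0 and 129.9 CPM in TERT(High) libraries, against 201.5, 309.1 and 177.9 CPM in TERT(Low) libraries. In both genes every TERT(High) value was below every TERT(Low) value. Their log2 fold changes were -0.97 (SE 0.29 and adjusted p = 0.0842 by edgeR) for Tuba1c and -0.92 (SE 0.25 and adjusted p = 0.0694 by edgeR) for Tuba1b. The tubulin transcripts had a median of 1925 nt, and after removal of the length and GC trends their median log2 fold change was -0.64. Tubulin genes are near-identical over parts of their coding sequence, so reads may be split between them.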

How the data were processed

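Libraries were made with a stranded mRNA kit after collagenase perfusion and sorting, per the labels' protocols. The submitters' processing notes name Trim Galore 0.4.0, TopHat2 2.0.13, DESeq2 and the build mm10; the counting program and its strand setting are not stated there. The authors deposited whole-number counts per gene for all 6 libraries, and a DESeq2 table of log2 fold changes and p-values of their own, which was used only where named. Its mean signal (normalized counts), linear fold ratio and test score columns, also deposited by the authors, were not used. Group and mouse came from the labels.

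The members, role groups and other lists were chosen with earlier results of these data known. Counts were filtered with filterByExpr (13288 of 15565 genes kept), scaled by TMM and fitted with edgeR 4.0.16 (robust quasi-likelihood), with all 6 libraries and no covariate. P-values were adjusted by Benjamini-Hochberg over all genes tested and called under 0.05. CPM were scaled by TMM factors. The biological coefficient of variation was 40.7%, and 29.6% with the mouse as a block. The fit reported did not use the pairing. For the block and the differences within a mouse, libraries were taken as pairs where the labels give them the same mouse. The deviations of a pair from the group means correlated at -0.089, 0.733 and 0.601 in mice 1, 2 and 3.

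Members named with values in every library were those called, the 4 most abundant, the 4 with the largest change in each direction and those the selection gives by name; others named are examples. The values of 1 member are not reported here. Transcript length and GC came from GENCODE M21 (GRCm38) for 48 of 49 members, and coordinates and promoters from RefSeq GRCm38.p6. The trend of each library with log2 length and GC was removed by natural splines with 4 degrees of freedom each. DESeq2 1.42.0 and limma-voom 3.58.1 were alternatives, as were other scalings and filters, the mouse block and leaving out libraries. The fits were tested on simulated data. Longer promoter motifs, the NRF1 palindrome and the full X-box, were also searched and are not reported here.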

Additional observations from a re-analysis of the deposited data

How the results depend on the processing

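The direction of the members' difference held under the alternatives tried: 0 members were called lower under any of them, and Cep350 and Cep85l stayed above 0 in all 28 alternatives, at log2 fold changes of 1.48 to 2.65 for Cep350 and 1.05 to 2.12 for Cep85l. Their calls did not: Cep350 kept its call in 18 of 28 alternatives and Cep85l in 16, with adjusted p of 2.26e-15 to 0.309 and 5.01e-05 to 0.445. Of 45 members, 2 were called with DESeq2 size factors, upper-quartile scaling, library totals or limma-voom. Of 13288 genes these fits called 529, 542, 628 and 515 higher and 464, 712, 19 and 455 lower, in that order. With no filter it was 2 of 49 members (492 genes higher and 336 lower of 15565). A strict filter of 1 CPM in 3 libraries gave 2 of 28 members (871 genes higher and 693 lower of 10645). With the replicate block in edgeR it was 3 of 45 members (721 genes higher and 571 lower of 13288). The block added Cspp1 and changed no other member's call. DESeq2 called 13 of the 39 members with an adjusted p (1544 genes higher and 1278 lower of 11317). With the replicate block it called 7 of the 49 members fitted (1653 genes higher and 1480 lower of 15565 fitted). At an adjusted p under 0.1, edgeR called 9 of 45 members (1421 genes higher and 1138 lower of 13288). Removal of the length and GC trends left 0 members and 0 genes in edgeR, with or without the replicate block, and in DESeq2 1 member (408 and 190 genes). Library totals alone left 19 genes lower, and put the median over all genes at 0.14 and over the members at 0.98 (log2). With 1 library or 1 mouse left out, in edgeR or DESeq2, 0 to 13 members were called, and 0 to 1662 genes were higher and 0 to 1615 lower; a lone remaining library of a pair was assumed to vary like the others. DESeq2 without each library in turn was chosen after seeing the data. The cause of these differences was not tested. Fits with samples left out also have fewer residual degrees of freedom, and the part of that was not tested either.

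The members that changed sign were uncalled, at -0.22 to 0.42 in the fit reported. Tubgcp6 was at -0.0230 with DESeq2 size factors, -0.0485 with upper-quartile scaling, -0.00684 with the strict filter, -0.0222 in DESeq2, -0.0298 in limma-voom, -0.0300 with the replicate block in edgeR and -0.0546 with it in DESeq2. Without the length and GC trends Tubgcp6 was at -0.46, or -0.45 with the replicate block and -0.46 in DESeq2, and it ranged from -0.25 to 0.18 with samples left out. Cep290 was at -0.0347 in limma-voom and -0.0311 with the replicate block, at -0.95 without the length and GC trends and -0.89 with both, and ranged from -0.25 to 0.47 with samples left out. Library totals put Tubgcp3 at 0.10, Cep19 at 0.0228 and Cep41 at 0.12. Without the length and GC trends Nin was at -0.0690, Cep76 at -0.21, Cep19 at 0.0816 and Cep97 at -0.47, and these last 3 were at -0.23, 0.0771 and -0.49 with the replicate block and at -0.21, 0.0823 and -0.47 in DESeq2. With samples left out, Cep76 ranged from -0.22 to 0.37, Nin from -0.42 to 2.11, Cep41 from -0.21 to 0.24, Cep83os from -0.61 to 0.0175, Tubgcp2 from -0.0606 to 0.22 and Tubgcp3 from -0.17 to 0.0592. The largest SEs of log2 fold change were those of Nin (1.26), Pcnt (0.87), Cep250 (0.84) and Cep70 (0.80).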
